A study of Oryctolagus cuniculus with 4 samples.

Results

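The subject is a set of 3 short genes that lie next to each other on rabbit chromosome 15, at chr15:76261876-76287475 of the OryCun2.0 genome. All genes that the count tables place wholly inside this stretch were taken, which gave 3 of the 29587 listed genes. They are called the first, the middle and the last gene here, in the order of their positions. The bounds of the stretch are the outer ends of the first and the last gene, which had been selected on their counts in all 4 libraries, higher with platelet-rich plasma (PRP) than without it. The difference between the groups is therefore described for these genes and not tested.

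The counts came from cultured tendon stem/progenitor cells of New Zealand White rabbits, the cells of tendon that divide and give rise to tendon cells. Cells of one group grew in medium with 10% (v/v) PRP, a blood fraction rich in platelets, whose granules release growth factors and other signalling proteins. Cells of the other group (noPRP) grew in medium without it. Each group held 2 libraries, with total counts between 20100175 and 24064713, and the labels do not say whether these came from separate animals or cultures, so any p-value measures only the spread between these libraries, which may be technical. In such bulk libraries, fewer cells of a type and less RNA per cell cannot be told apart.

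Short genes that stand side by side on one strand are a common arrangement in gene families that grew by tandem duplication, and many families of secreted signalling proteins are laid out this way. Neighbouring copies often keep a similar exon structure while their transcripts differ in level. The CXC chemokines, small secreted proteins that draw leukocytes to inflamed tissue, are one such family. Whether the 3 genes belong to it was not tested, because 0 of the 29587 identifiers could be paired with a symbol from the sources used here. For the same reason the labelled cell type was not checked against tendon, leukocyte or platelet markers.

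The 3 genes share a compact structure, which was known when they were chosen, and their strand, which the choice did not use. All 3 are on the minus strand, as are most listed genes within 500 kb on each side. The gaps are 17.6 kb between the first and the middle gene and 5.09 kb between the middle and the last. The first gene (ENSOCUG00000024425, chr15:76261876-76263428) spans 1553 bases and has 5 exon blocks after overlapping exons are merged, with 599 exon bases. The middle gene (chr15:76281019-76281825) spans 807 bases, with 4 exon blocks and 382 exon bases. The last gene (ENSOCUG00000027368, chr15:76286920-76287475) is the shortest, at 556 bases, with 2 exon blocks and 249 exon bases. These are small genes for this annotation, where the median span was 7500 bases over all listed genes and 23128 bases over the genes with enough counts to be tested. The spans of the first, middle and last gene stood at percentiles 9.76, 4.55 and 3.14 of the 12707 tested genes. No exon of the 3 genes overlapped an exon of another listed gene in the region or its flanks (0 overlaps), so none of their reads was dropped for that reason. Reads that also align to a near-identical copy elsewhere were dropped in the counting, and how much this lowered the counts was not tested.

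The first gene was near the bottom of the tested genes in one noPRP library and near their middle in the other, and it was among the most abundant transcripts with PRP. It had 19 and 331 counts in noPRP replicates 1 and 2, and 56044 and 26857 counts in PRP replicates 1 and 2. As CPM, counts scaled to a common library total with edgeR's TMM factors (a trimmed mean that leaves out extreme genes), its level was 0.865 and 14.6 without PRP, and 2331 and 1339 with it. Both PRP libraries were far above both noPRP libraries, and the lower PRP library exceeded the higher noPRP library by a factor of 92.0. The group means were 7.71 ± 9.69 CPM and 1835 ± 701 CPM (SD, n = 2 each). In the edgeR fit across all genes the log2 fold change was 7.89, with a standard error (SE) of 1.40. The size of this fold depended on the noPRP libraries: it was 11.03 on the log2 scale without noPRP replicate 2 and 6.99 without noPRP replicate 1.

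The last gene had the highest level of the 3 per exon length in every library. It had 335 and 796 counts in noPRP replicates 1 and 2, and 95097 and 19053 counts in PRP replicates 1 and 2. These correspond to 15.2 and 35.0 CPM without PRP, and to 3956 and 950 CPM with it. The groups did not overlap here either, but the PRP libraries were far apart, and the group means were 25.1 ± 14.0 CPM and 2453 ± 2125 CPM (SD, n = 2 each). The log2 fold change was 6.61 (SE 1.14), and it was 5.24 without PRP replicate 1 and 7.36 without PRP replicate 2.

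The middle gene lies between these 2 and had few counts in any library. It had 7 and 0 counts in noPRP replicates 1 and 2, and 78 and 139 counts in PRP replicates 1 and 2. In normalized units, noPRP replicate 1 was at 0.319 CPM, the count of 0 in noPRP replicate 2 allows up to 0.132 CPM, and the PRP libraries were at 3.24 and 6.93 CPM. Here too both PRP libraries were above both noPRP libraries. The group means were 0.159 ± 0.23 CPM and 5.09 ± 2.6 CPM (SD, n = 2 each), and the fitted log2 fold change of 4.96 (SE 1.32) rests on 7 noPRP reads. In noPRP replicate 2 the gene is at 0. With that library as the only control, a floor of 3 counts puts the PRP mean at least 38.5-fold higher. This bound leaves out noPRP replicate 1, the control library with counts. Over all 4 libraries the group means were 31.9-fold apart, and the lower PRP library exceeded the higher noPRP library 10.2-fold.

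**Figure D1:**
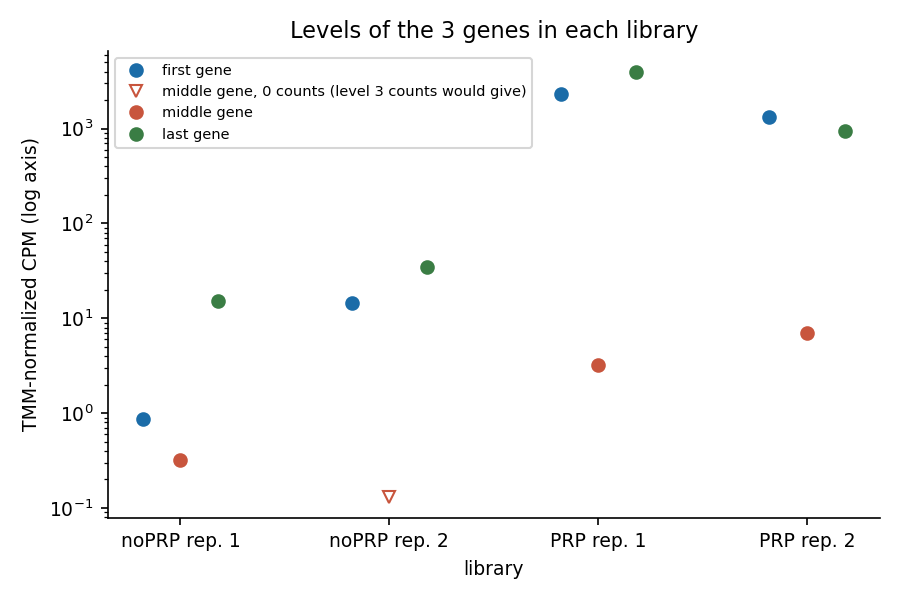
TMM-normalized CPM (log axis) of the first, middle and last gene in each of the 4 libraries, 1 point per library; the open triangle marks a count of 0 at the level that 3 counts would give. All 3 genes are higher in both PRP libraries than in both noPRP libraries, and the middle gene stays below 10 CPM throughout.

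All 3 genes had groups that did not overlap, with both PRP libraries above both noPRP libraries, as had 23.8% of the 12707 tested genes. The first and the last gene, 2 of the 3, had an adjusted p under 0.05 in edgeR, the value by which they were chosen. Of all tested genes, 0.535% were called higher by that rule. The middle gene missed it. Since the rule used this contrast, these counts only place the 3 genes among the rest. The plot of fold change against average level shows where they fall: the first and the last gene are both strongly higher and abundant, a corner with few other genes. In PRP replicate 1 the last gene ranked 22 and the first gene 39 by CPM among the tested genes, and in PRP replicate 2 they ranked 177 and 128. In noPRP replicates 1 and 2 the first gene ranked 11302 and 6047 of 12707, and the last gene ranked 5938 and 3791.

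**Figure D2:**
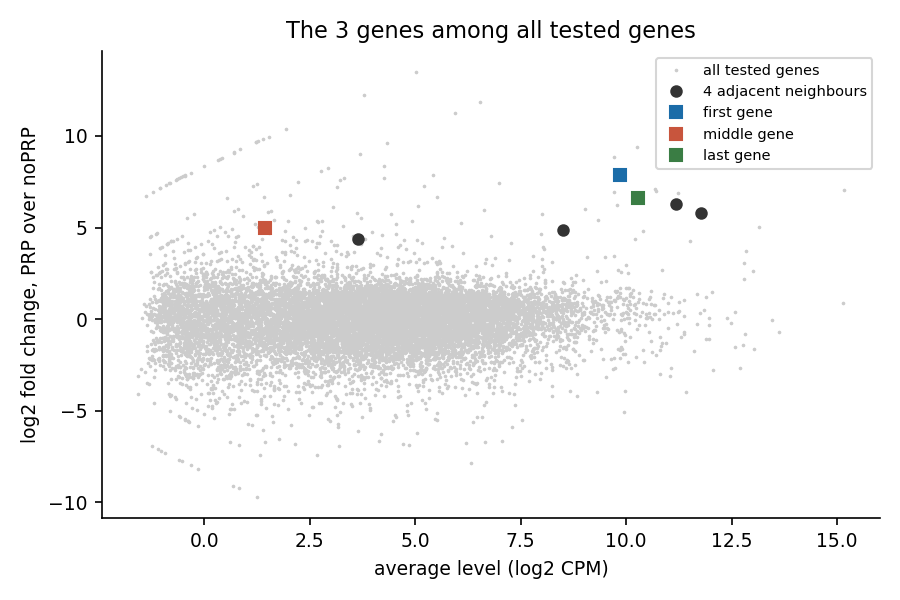
Log2 fold change of PRP over noPRP against the average level in log2 CPM for all 12707 tested genes (grey), with the first, middle and last gene as coloured squares and their 4 nearest tested neighbours, 2 on each side, as black circles. The first and last gene lie at log2 fold changes of 7.89 and 6.61 and the middle gene at 4.96, at a much lower level.

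Together the 3 genes took a visible part of the PRP libraries. They held 0.628% (95% Wilson interval 0.625 to 0.632) of the counts of PRP replicate 1 and 0.193% (0.191 to 0.195) of those of PRP replicate 2. In noPRP replicates 1 and 2 they held 0.0018% (0.00162 to 0.00199) and 0.00538% (0.00508 to 0.0057). The first and the last gene account for nearly all of this. These intervals and the floor cover counting error only, and they are somewhat too narrow, because the ends of a read pair were counted separately.

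The 3 genes did not order the PRP libraries alike. The first gene was higher in PRP replicate 1 than in PRP replicate 2 by a factor of 1.74 (exact 95% interval 1.72 to 1.77, counting error only). For the last gene the factor was 4.16 (4.10 to 4.23). The middle gene went the other way, with a factor of 0.468 (0.350 to 0.622). By counting error alone, the interval of the middle gene lies wholly below 1, while those of the first and the last gene lie above it. The 3 genes sit within 25600 bases. Among all tested genes, these ratios stood at percentiles 70.9 (first), 16.5 (middle) and 90.8 (last). The ratio of the first gene was thus a common one, that of the middle gene was towards the lower end and that of the last gene near the upper end.

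By plain counts, the order of the first and the last gene also turned between the PRP libraries. The last gene had 1.70 times the counts of the first in PRP replicate 1 and 0.709 times in PRP replicate 2. The turn disappears once exon length is taken into account, since the last gene is the shorter one. Per kilobase of exon, the last gene was at 15886 and 3816 CPM per kb in PRP replicates 1 and 2, against 3892 and 2236 CPM per kb for the first gene, so it was 4.08 and 1.71 times as high. In the noPRP libraries the last gene was 42.4 and 5.79 times as high as the first per kilobase. On this scale the order was the same in all 4 libraries, the last gene above the first and the first above the middle gene. The middle gene, at 8.49 and 18.1 CPM per kb in the PRP libraries, stood 458-fold and 123-fold below the first gene.

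Within the noPRP group the first gene was the less even of the 2 abundant ones. It was 16.8 times as high in noPRP replicate 2 as in replicate 1 (exact 95% interval 10.6 to 28.3), a ratio at percentile 99.8 of all tested genes. The last gene was 2.30 times as high (2.02 to 2.62), at percentile 80.7. The middle gene had all 7 of its noPRP counts in replicate 1, the opposite order. Genes of chromosome 15 in general leaned the same way as the first and the last gene: over its 300 tested genes the median ratio of noPRP replicate 2 to replicate 1 was 1.87, and that of PRP replicate 1 to replicate 2 was 1.51, against 1.03 and 1.03 over all tested genes. The part of this chromosome-wide difference between libraries in the results for the 3 genes was not tested. The fold changes between groups run against the chromosome, whose tested genes had a median log2 fold change of −0.85.

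**Figure D3:**
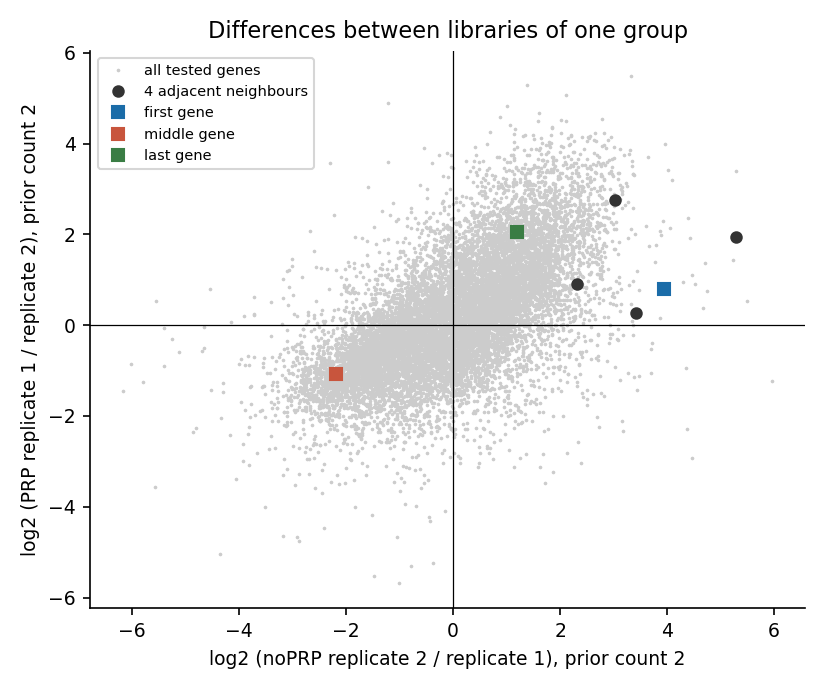
Log2 ratio of PRP replicate 1 to PRP replicate 2 (vertical) against log2 ratio of noPRP replicate 2 to noPRP replicate 1 (horizontal), both with a prior count of 2, for all tested genes (grey), the 3 genes (squares) and 4 neighbours (black circles). The first and last gene and the 4 neighbours lie to the upper right of the zero lines, and the middle gene to the lower left, at −1.07 and −2.18.

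The tested genes next to the region had fitted fold changes of the same sign as the 3 genes. The flanks, 500 kb on each side, list 14 genes, of which 12 had a count in any library and 7 had enough counts to be tested. All 7 had a positive log2 fold change, with a median of 4.40 against 0.04 over all tested genes. Of these 7, 6 had both PRP libraries above both noPRP libraries, a pattern of 23.8% of all tested genes. None passed an adjusted p of 0.05 in edgeR (0 of 7, with 5 at an unadjusted p under 0.05, against 13.3% of all tested genes). This 0 was built in by the choice of the region, whose bounds are the outermost genes that passed. DESeq2, which called 2.41% of the same genes higher, called 4 of the 7, and limma-voom (0.724%) called 3. Without a filter, edgeR tested 19956 genes and called 1.15% of them higher. In the flanks it then tested 12 genes and called 4.

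The nearest neighbours, 2 on each side, showed the largest values. The gene just outside on the right, at chr15:76297487-76298504, is as compact as the 3 genes, with a span of 1018 bases and 597 exon bases, and starts 10.0 kb after the last gene. It had 596 and 5069 counts in noPRP replicates 1 and 2, and 289321 and 35980 counts in PRP replicates 1 and 2. Its counts exceeded those of the last gene in every library, and in PRP replicate 1 it ranked 6 among all tested genes by CPM. Its log2 fold change of 5.79 (SE 1.34) had an adjusted p = 0.0642 in edgeR, and it passed 5% in 4 of the 6 alternative analyses that used all 4 libraries, with adjusted p between 2.54e-07 and 0.159.

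The next gene to the right, at chr15:76368959-76371691, behaved alike. It had 62 and 2573 counts without PRP, and 174618 and 38083 counts with it. Its noPRP libraries were 40.1-fold apart (exact 95% interval 31.2 to 52.5), even further than those of the first gene. The log2 fold change was 6.30 (SE 1.53), at an adjusted p = 0.0735 in edgeR, with a call in 4 of these 6 alternatives and adjusted p from 5.62e-08 to 0.102.

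On the left, the gene just outside, at chr15:76146658-76253617, ends 8.26 kb before the first gene and differs in structure, with 934 exon bases spread over 106960 bases. It had 88 and 994 counts in noPRP replicates 1 and 2, and 18478 and 12868 in the PRP libraries. The log2 fold change was 4.88 (SE 1.13), at an adjusted p = 0.0642 in edgeR, with a call in 3 of the 6 alternatives and adjusted p from 6.94e-05 to 0.0931. Further left, a short gene at chr15:76135394-76135954, with a span of 561 bases, had 7 and 44 counts without PRP and 752 and 332 with it. The fit gave 4.40 on the log2 scale (SE 1.08), at an adjusted p = 0.0742 in edgeR, with a call in 2 of the 6 alternatives and adjusted p from 0.000234 to 0.278.

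**Figure D4:**
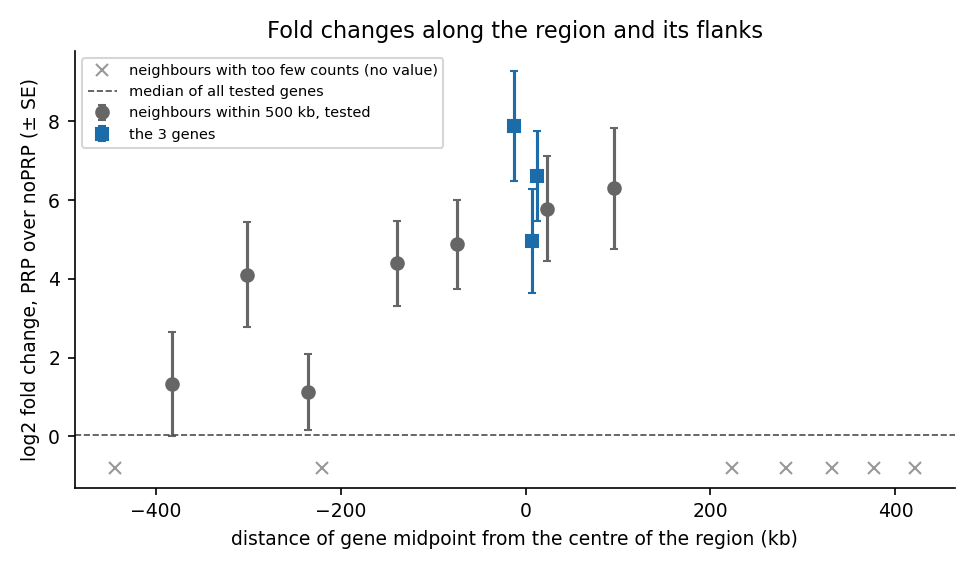
Log2 fold change of PRP over noPRP (± SE of the edgeR fit) against the distance of each gene's midpoint from the centre of the region, for the 3 genes (blue squares) and the 7 tested neighbours within 500 kb (grey circles); crosses mark neighbours with too few counts, and the dashed line is the median of all tested genes. All 10 points lie above the dashed line, with the lowest values, 1.13 and 1.33, at 235 and 382 kb to the left.

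With these 4 neighbours, the 3 genes form a row of 7 adjacent tested genes over 236 kb. The row was delimited after its values were seen. All 7 are on the minus strand, as are the other tested genes of the flanks and most of the untested ones. All 7 had both PRP libraries above both noPRP libraries, as had 23.8% of all tested genes. Of the 7, 6 were higher in PRP replicate 1 than in replicate 2, and 6 were higher in noPRP replicate 2 than in replicate 1; the exception was the middle gene both times. For comparison, 67.0% of the tested genes of chromosome 15 were higher in PRP replicate 1 and 81.0% in noPRP replicate 2. The size of the difference between the PRP libraries was uneven along the row. It was 1.89 and 1.20 for the left neighbours and 1.74 for the first gene, and 4.16, 6.71 and 3.82 for the last gene and the right neighbours.

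Levels along the row were uneven. Per kilobase of exon, the last gene and its right neighbour were the highest of the row in both PRP libraries, at 15886 and 20158 CPM per kb in PRP replicate 1 and at 3816 and 3005 in PRP replicate 2. Beyond the second right neighbour, the 5 remaining genes of the right flank had too few counts to be tested. With the 2 such genes on the left, their highest count in any library was 8. On the left, the 3 other tested genes were low in every library. The gene at chr15:75965346-76113857 went from 14 and 60 counts without PRP to 97 and 63 with it, 1.13 on the log2 scale (SE 0.964; adjusted p = 0.598 in edgeR). The gene at chr15:75950346-75996158 had 0 and 2 counts without PRP, 21 and 17 with it, so that its groups were apart. Its log2 fold change of 4.11 (SE 1.33, adjusted p = 0.181 in edgeR) was close to that of the leftmost gene of the row. Its span overlaps that of the gene named before it. Across the region and its flanks, 1 pair of genes had overlapping exons, and reads in such overlaps were dropped. Which genes these were, and how much this lowered their counts, was not tested. The gene at chr15:75880524-75904763 had 1 and 27 counts without PRP, 69 and 5 with it, so that its groups overlap. Its fitted log2 value of 1.33 (SE 1.32; adjusted p = 0.642 in edgeR) turned to −1.27 without PRP replicate 1.

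**Figure D5:**
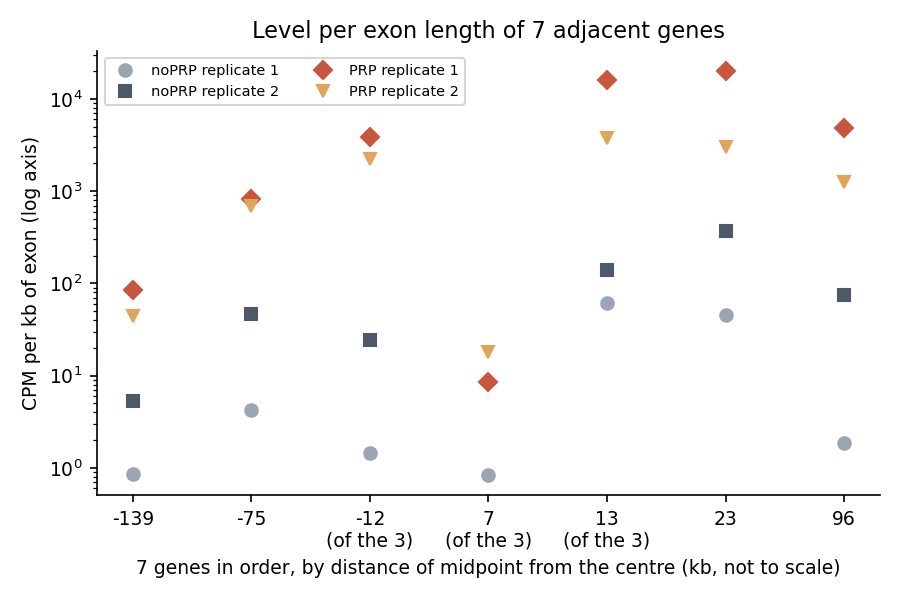
Level in CPM per kb of exon (log axis) of the 7 adjacent genes in each library, in order of position, with the distance of each gene's midpoint from the centre of the region below; the middle gene's count of 0 in noPRP replicate 2 is not drawn. Both PRP libraries are above both noPRP libraries for all 7 genes, and the middle gene drops to 8.49 and 18.1 CPM per kb between neighbours at 2236 or more in the PRP libraries.

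Other short genes are given for comparison. Among the 1533 other tested genes with a span of up to 2000 bases, 12 were called higher in PRP (0.783%), against 0.535% of all tested genes, and their median log2 fold change was 0.36, against 0.04 over all tested genes.

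The 4 neighbours in the row were among the genes most similar to the first and the last gene over the 4 libraries. So were genes of other chromosomes. Likeness was measured as the Euclidean distance between profiles of log2 CPM, each centred on its own mean. With 4 libraries it is a coarse description. The distance includes the difference between the groups, by which the first and the last gene were chosen. The row was also delimited after its values were seen, so the ranks are description only. For the first gene, the closest was on chromosome 9 at positions 103893995 to 103901452 (distance 1.733), followed by the second right neighbour in the row (1.733) and a gene on the unplaced sequence GL018733 at 2179759 to 2184374 (1.87). For the last gene, the 3 closest were on chromosome 2 at 97560400 to 97570279 (0.686), on chromosome 13 at 52895027 to 52907348 (0.889) and on chromosome 7 at 141217000 to 141288454 (1.16), while its own right neighbour was at 1.47. The 4 neighbours of the row came at ranks 2, 14, 17 and 40 of 12704 for the first gene and at ranks 8, 31, 35 and 118 for the last. The first and the last gene were 3.29 apart from each other, further than either was from its closest genes elsewhere. For the middle gene, the 3 closest were on chromosome 9 at 25321769 to 25374663 (0.342), chromosome 4 at 35639996 to 35680072 (0.506) and chromosome 7 at 15646175 to 15652647 (0.635), all with low counts. The closest of the 7 tested flank genes to the middle gene came at rank 728 of 12704 (2.95). Its distances to the first and the last gene were 6.19 and 3.69.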

How the data were processed

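Messenger RNA of 4 libraries was measured. The authors deposited raw read counts per gene; the tools, per the submitters' processing notes, were featureCounts 1.6.5 and STAR 2.7.2a, with the OryCun2.0 build. Per the file headers, exons of the Ensembl 98 annotation were counted per gene, and no setting was given for pairs, strand, overlapping genes or reads with several alignments, so by the program's defaults strand was ignored, each end of a pair was counted and reads of the last 2 kinds were dropped. Of the 29587 genes, 12707 passed edgeR's filterByExpr. TMM factors were 1.09, 1.09, 1.00 and 0.842 (noPRP replicates 1 and 2, PRP replicates 1 and 2). PRP and noPRP were compared with edgeR 4.0.16 (glmQLFit, glmQLFTest, group only) in R 4.3.3, with Benjamini-Hochberg adjustment over the 12707 genes; a call is an adjusted p under 0.05. Standard errors were derived from the F statistic. The degrees of freedom were 2 from the libraries and a median of 11.4 from the other genes. The fit was tested on simulated data. CPM per kb divides CPM by exon length. Alternatives used DESeq2 1.42.0 and limma 3.58.1 (voom), other scalings, no filter, a replicate block, each library left out and other flanks. Named genes were the 3 genes, the flank genes that passed the test or stood nearest, and the 3 genes of most similar log2 CPM profile (prior count 2) for each; the other tested flank genes were added after their values were seen. The genes, flanks and lists were chosen with earlier results of these data known. The gene lists for chemokines, NF-kappaB targets and cell type markers need symbols and were not used. The table of the whole series was not used.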

Additional observations from a re-analysis of the deposited data

How the results depend on the processing

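Where a library is left out, the lone library of its group is assumed to vary like those of the other group. The 3 genes kept a positive log2 fold change in all 10 alternative analyses each, which groups that do not overlap nearly fix. With each library left out in turn it was 6.99 to 11.03 for the first, 3.96 to 9.83 for the middle and 5.24 to 7.36 for the last gene; the 9.83 compares with a single library at 0 counts, depends on the prior count and is no bound. Across the other alternatives it was 7.85 to 8.94, 4.90 to 5.78 and 6.39 to 6.63. The ratio of PRP replicate 1 to replicate 2 was 2.07 by plain CPM, 1.84 with upper-quartile normalization and 1.68 with DESeq2 size factors for the first gene, and 4.94, 4.39 and 4.02 for the last; the middle gene stayed below 1 in each. The number of called genes was 109 (68 higher, 41 lower), and 60 with upper-quartile normalization (46 and 14), 565 without a filter (230 and 335), 728 with DESeq2 (306 and 422) and 114 to 571 with a library left out (165 without PRP replicate 1; 138 higher and 433 lower without noPRP replicate 1). In the flanks it was 0, with 1 for DESeq2 size factors, 4 without a filter, 4 for DESeq2, 3 for limma-voom and 2 to 4 with a library left out. The median log2 fold change of the flank genes, 4.40, was 3.63 to 7.25 with a library left out and 1.33 with flanks of 1000 kb. The gene at chr15:75880524-75904763 turned from 1.33 to −1.27 without PRP replicate 1. For these shifts, the cause was not tested. The median over all tested genes was 0.20 without a filter and 0.13 without noPRP replicate 1.

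The replicate numbers are not said to pair samples, and deviations of same-numbered libraries from their group means had a correlation of −0.63 across genes. A replicate block gave 57 called genes (46 higher, 11 lower), with 1 in the flanks. The crossed pairing, chosen after seeing the data, gave 3588 called genes, with 5 in the flanks.

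With 2 libraries a group, total counts of at least 20100175 a library leave counting error well below the spread between libraries for the last gene and for the first gene with PRP. The first gene in noPRP replicate 1, with 19 counts, and the middle gene, with 0 to 139, are limited by depth as well.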

Other observations

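Between 500 and 1000 kb from the region, 4 genes were tested, 2 on each side, and all 4 had a lower mean level in PRP, on a chromosome whose median log2 value was −0.85. The gene at chr15:75265616-75375162 had 1231 and 1692 counts in noPRP replicates 1 and 2, and 132 and 242 in PRP replicates 1 and 2, which is −2.89 on the log2 scale (SE 0.85; adjusted p = 0.136 in edgeR). The gene at chr15:75473091-75532783 went from 32 and 123 counts without PRP to 19 and 15 with it, or −2.15 on the log2 scale (adjusted p = 0.376 in edgeR). On the right, the genes at chr15:76878896-77019847 and chr15:77024848-77035022 had log2 fold changes of −0.45 and −0.38 (adjusted p = 0.781 and 0.831 in edgeR), above that median. None of these passed the test in edgeR (0 of 4, against 109 of all 12707 tested genes in either direction). At an unadjusted p under 0.05 in edgeR there was 1 of the 4, against 13.3% of all tested genes.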
